A study of Homo sapiens with 4 samples.

Results

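The nuclear-encoded subunits of the mitochondrial respiratory chain and ATP synthase were followed in MDA-MB-361, a HER2-positive luminal breast cancer line. The genes were chosen by symbol. They were those starting with NDUFA, NDUFB, NDUFC, NDUFS, NDUFV, UQCR, COX4 to COX8 or ATP5, together with SDHA, SDHB, SDHC, SDHD and CYC1, without the NDUFAF assembly factors and without genes that do not code for protein. This gave 78 genes of the 19775 with a probe set for a single gene, and 74 of the 12728 genes that passed the filter on low intensity. Complex I held 33 of the 74 genes, complex II 3, complex III 7, complex IV 14 and complex V 17. NDUFA4, NDUFA4L2, SDHB and UQCRFS1 had no probe set named for them alone and were not analysed here. ATP5IF1, an inhibitor of ATP synthase and not a subunit, and COX7A2L, a factor that joins complexes III and IV, were kept because the symbols match.

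Respiratory complexes I to IV pass electrons from NADH and succinate to oxygen and build up a proton gradient across the inner mitochondrial membrane. Complex V, the ATP synthase, uses that gradient to make ATP. Apart from complex II, each complex combines subunits encoded by mitochondrial DNA with the nuclear-encoded subunits described here, and many nuclear genes for the chain carry promoter motifs for NRF1, for ETS factors such as GABPA, and for YY1.

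Expression was read on 4 Affymetrix U133 Plus 2.0 arrays. There were 3 arrays from derivatives that express different short hairpin RNAs against DCD, which encodes the secreted peptide dermcidin, and 1 array from cells with the empty lentiviral vector pLKO. The derivatives are numbered clones in the sample labels and are called clones 1, 2 and 3 here. All 4 arrays share the parental line and the lentiviral backbone, each derivative is 1 culture on 1 array with its own hairpin, and no scrambled hairpin was among the samples. The purpose was to find what changes in these cells when DCD is lowered, so each clone was compared with pLKO. The 3 comparisons share the single pLKO array, so any peculiarity of that culture enters all of them, and none has a replicate of its own. In whole cultures, less RNA per cell and fewer cells with the RNA cannot be told apart.

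Intensities were quantile normalized, which gives all arrays the same distribution, and values under 16 were set to 16. For a gene with several probe sets, the one of highest mean log2 intensity stands for it. DCD itself lay under 16 on all 4 arrays before normalization (2 to 7), so the arrays do not check the knockdown. All 8 luminal markers were above 16 on some array, and their summed intensity was 17159 in pLKO and 21819 to 29192 in the clones. In clone 3 the sum rested on KRT18 and GATA3, while KRT19, EPCAM, CDH1 and ERBB2 were below pLKO there, ERBB2 at 753 against 2336. Both named basal markers, KRT5 and KRT14, were at 16 throughout. The summed intensity was 251 to 536 for 5 fibroblast markers, highest in clone 3, 60.4 to 93.9 for 3 endothelial markers and 49.5 to 77.1 for 3 leukocyte markers. The 3'/5' ratios of control transcripts, which rise when RNA is degraded or labelling is incomplete, differed between arrays. Signal at the 3' end of the ACTB control transcript exceeded signal at its 5' end by a factor of 2.58 in clone 2, 5.29 in pLKO, 9.67 in clone 1 and 42.6 in clone 3. For GAPDH the factors were 1.02, 1.09, 2.18 and 13.1 for these arrays. Clone 3 also had 55.1% of probe sets under 16 before normalization, against 39.3 to 43.9% on the other arrays.

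Promoter letters were searched for motifs that the choice by symbol did not use. RefSeq windows of GRCh38.p14, 250 bases before to 50 after a transcription start, were at hand for 66 of the 78 genes, with 79 windows in all, since some genes have several starts. GCGCATGCG, the core of the NRF1 motif, was found on either strand in 13.9% of these windows, against 1.92% of all 35116 windows. The ETS motif CCGGAAGT was in 13.9% against 4.14%, and the YY1 motif AAGATGGCG in 11.4% against 1.75%. At least 1 of the 3 motifs was in 34.2% of the windows against 7.33% of all windows. The Sp1 motif GGGGCGGGG, common in promoters rich in G and C, was in 13.9% against 15.7%. Among the 19316 windows of protein-coding genes on the array, the shares were 2.51% for NRF1, 5.68% for ETS, 2.60% for YY1, 10.1% for any of these and 21.95% for Sp1. An NRF1, ETS or YY1 match was found in 26 of the 66 genes, so most had none of them in these windows. A match is a run of letters and not a measured binding site.

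The 120 bases before the start of 5 genes are printed because they carry an NRF1 or ETS match and because the genes lay on different sides of pLKO in the values described later. Capitals mark the NRF1 match, which in SDHD and ATP5F1C extends by 1 base on the palindrome, or the ETS match, which reads ACTTCCGG where it lies on the opposite strand. SDHD is at chr11:112086753-112086872 on the plus strand, ATP5ME at chr4:674277-674396 on the minus strand, ATP5F1C at chr10:7788057-7788176, COX5B at chr2:97645942-97646061 and COX8A at chr11:63974500-63974619, the last 3 on the plus strand.
SDHD: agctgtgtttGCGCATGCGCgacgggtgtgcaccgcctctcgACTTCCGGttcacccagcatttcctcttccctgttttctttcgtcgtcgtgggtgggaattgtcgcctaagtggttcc
ATP5ME: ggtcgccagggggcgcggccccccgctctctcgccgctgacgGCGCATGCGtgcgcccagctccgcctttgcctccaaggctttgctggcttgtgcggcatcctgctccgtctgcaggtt
ATP5F1C: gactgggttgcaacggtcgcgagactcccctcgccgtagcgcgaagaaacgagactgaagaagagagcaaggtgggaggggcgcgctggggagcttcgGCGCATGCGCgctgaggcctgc
COX5B: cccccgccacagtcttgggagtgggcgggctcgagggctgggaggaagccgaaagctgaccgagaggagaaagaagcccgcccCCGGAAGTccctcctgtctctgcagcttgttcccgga
COX8A: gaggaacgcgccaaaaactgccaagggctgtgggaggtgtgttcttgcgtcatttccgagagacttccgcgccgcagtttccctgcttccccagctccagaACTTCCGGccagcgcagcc

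The 10 letters GCGCATGCGC stand in SDHD and in ATP5F1C. With quantile normalization, SDHD was lower than pLKO in all 3 clones and ATP5F1C was higher in clones 1 and 2. The printed genes were picked for lying on different sides of pLKO, so this contrast follows from the choice. It also depended on scaling. With arrays centred on the median, or with the values as deposited, both genes were below pLKO in clones 1 and 3 and above it in clone 2. A part of the motif in these values was not tested. Among the 64 tested genes with a window, the 11 with an NRF1 match had median log2 differences from pLKO of -0.04 in clone 1, 0.33 in clone 2 and -0.15 in clone 3. The 53 without it had medians of -0.01, 0.27 and -0.67 in the same order. The 11 with an ETS match had medians of -0.15, 0.14 and -1.46, and the 53 without it had -0.01, 0.32 and -0.38. These are descriptions of small groups of genes on the same 4 arrays.

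As a group, the subunit genes lay above pLKO in clone 2 and below it in clone 3, with clone 1 between. The median log2 difference from pLKO over the 74 genes was -0.14 in clone 1, 0.30 in clone 2 and -0.63 in clone 3, and over all 12728 tested genes it was 0.01, 0.00 and -0.11. The shift in clone 2 was small and even, with 64 of 74 genes above pLKO where 49.3% of all tested genes were. The interquartile range there was 0.32 on the log2 scale, against 0.64 over all tested genes. In clone 3, 55 of 74 genes lay below pLKO (background 53.8%). The interquartile range in clone 3 was 1.54, close to the 1.52 over all tested genes. In clone 1, 41 genes lay below pLKO (background 48.5%), a share close to that of all genes by count.

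Large differences were most frequent in clone 3, as they were among all tested genes. At least 1.5-fold lower intensities were found for 37 of the 74 genes in clone 3 (background 34.6%), 17 in clone 1 (background 20.4%) and 1 in clone 2 (background 13.2%). At least 1.5-fold higher intensities were found for 10 genes in clone 3 (background 26%), 4 in clone 1 (background 19.1%) and 3 in clone 2 (background 11.5%). Clone 2 thus had most genes above pLKO but few of them by as much as 1.5-fold. At 2-fold, 29 genes were lower (background 22.4%) and 5 higher (background 14.9%) in clone 3, 3 were lower in clone 1 (background 9.09%), and 1, COX6B2, was lower in clone 2 (background 4.34%).

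**Figure D1:**
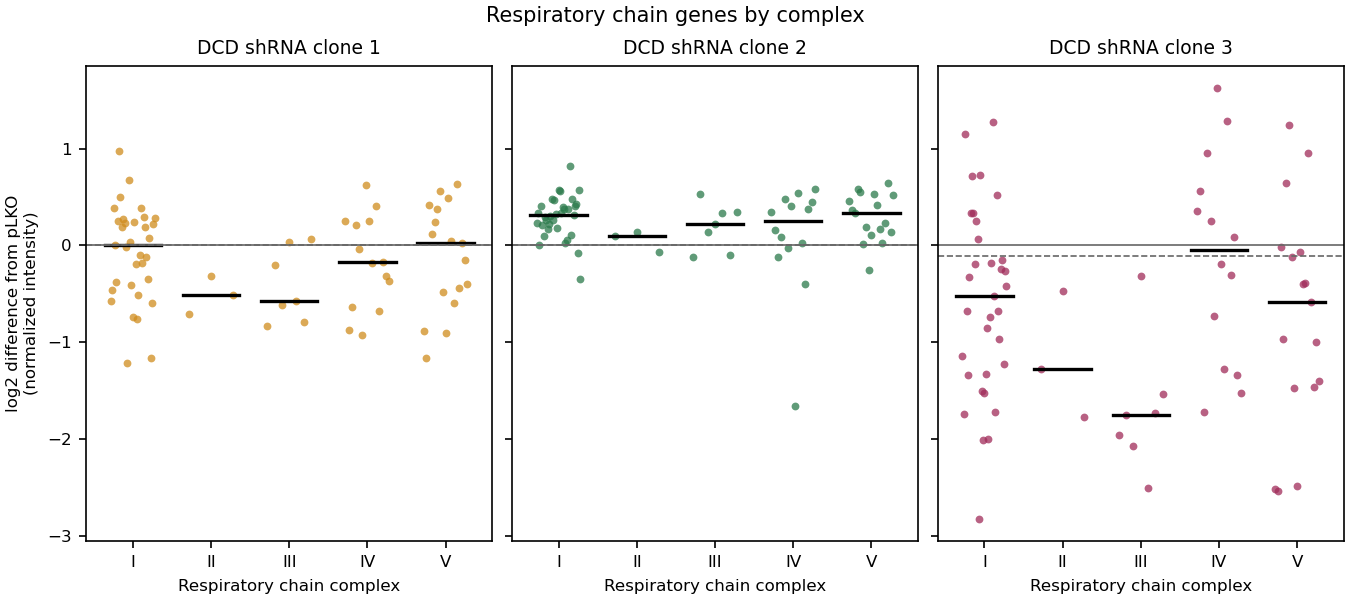
Log2 difference of each DCD shRNA array from pLKO for the 74 tested genes, split by complex and clone, 1 point a gene. Black bars mark the median of a complex, the solid line is 0 and the dashed line is the median of all 12728 tested genes. In clone 2 the median of every complex lies just above 0, with 64 of the 74 points above it, while in clone 3 they spread widely and those of complexes II and III all lie below 0.

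No gene differed by at least 1.5-fold in the same direction in all 3 comparisons, where 2.56% of all tested genes were higher and 3.3% lower by that rule. On 1 side of pLKO regardless of size, 15 genes were higher in all 3 clones (background 18.8%) and 8 lower (background 21.3%). The higher genes were NDUFA3, NDUFA5, NDUFA6, NDUFA8, NDUFA11, NDUFB1, NDUFB8 and NDUFS1 of complex I, COX4I1, COX5B, COX6B1 and COX7A2 of complex IV, and ATP5F1E, ATP5IF1 and ATP5MK of complex V. The lower genes were NDUFV1, SDHD, CYC1, UQCRC2, COX5A, COX6A2, COX7A2L and ATP5MC2, of all 5 complexes. limma, fitted to the 3 clones against pLKO over 27307 probe sets, called none of the 74 genes at an adjusted p of 0.05 and 0% of all tested genes. None of the 74 had an unadjusted p under 0.05, and 91 of the 12728 genes did. The smallest unadjusted p among the 74 genes in the limma fit was 0.266, for COX6B1. The fit has 2 residual degrees of freedom and takes the lone pLKO array to vary like clones with different hairpins.

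With quantile normalization, the median intensity of the 74 genes was 806 in clone 2, 645 in clone 1, 642 in pLKO and 374 in clone 3. Clone 1 and pLKO were thus nearly level. An order of the 4 arrays was more frequent among these genes than among all tested genes, although most of the 74 did not hold it. Intensity was highest in clone 2, then pLKO, then clone 1, and lowest in clone 3 for 27 of the 74 genes (36.5%), an order that 9.5% of all tested genes shared and that was chosen after the values were seen. With median centring it was held by 52 genes (70.3%) against 22.02% of all tested genes, and with the values as deposited by 64 (86.5%) against 39.9%. Among the 7793 tested genes of highest intensity, 11.3% held the order with quantile normalization. The other scalings were not compared with genes of like intensity. Clone 2 held the highest of the 4 values for 45 genes, where it did so for 23.1% of all tested genes, and the lowest for 1, against 19.2%. Clone 3 held the lowest for 50 genes, against 39.4%, and the highest for 14, against 32.2%. The lowest value was that of pLKO for 15 genes, against 18.8%. The ACTB and GAPDH 3'/5' ratios rise in the same order of arrays, from clone 2 through pLKO and clone 1 to clone 3. The part of RNA integrity or labelling in the shifts was not tested.

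The direction of a single gene depended on how the arrays were scaled, and the values by gene are those after quantile normalization. With arrays centred on the median, or with the values as deposited, the 15 genes that were higher in all 3 clones became 0, and COX7A2L was the 1 gene below pLKO in all 3 clones under all 3 scalings. As deposited, however, COX7A2L was nearly level in clone 2, at 607.4 against 610.1 in pLKO. Median centring moved the median of all tested genes to -0.37 in clone 1, 0.09 in clone 2 and -0.53 in clone 3. In clone 1, 33 genes were higher than pLKO with quantile normalization and 1, NDUFA3, with either of the others. In clone 3 the 19 higher genes became 8 with median centring, which were ATP5IF1, ATP5MK, COX4I2, COX5B, COX6B1, COX7A2, NDUFA11 and NDUFB8, and COX6B1 alone with the values as deposited. Relative to all tested genes, the direction of the group stayed the same. The group's median minus that of all tested genes was -0.15, 0.30 and -0.52 in clones 1, 2 and 3 with quantile normalization. It was -0.42, 0.28 and -0.90 with median centring, and -0.42, 0.28 and -0.97 with the values as deposited. This background is not matched in intensity, with a median of 71.8 against 673.5 for the 74 genes. With quantile normalization, the 7793 tested genes of highest intensity had medians of 0.03, 0.01 and -0.15. The cytosolic ribosome, with a median intensity of 2858, stood at -0.66, -0.53 and -0.61 relative to all tested genes with median centring. The part of intensity in the values of the other scalings was not tested. By complex, the median of clone 2 was above pLKO and that of clone 3 below it under all 3 scalings in each of the 5 complexes. For clone 1, complexes I and V stood at 0.00 and 0.03 with quantile normalization but at -0.61 and -0.72 with median centring. For clone 3, complex IV went from -0.05 to -0.70. Clone 2 was above pLKO for 68 of 74 genes with median centring and 72 as deposited, where 56.2% and 72.5% of all tested genes were.

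Complex I takes electrons from NADH and is the main entry point of the chain. Its median log2 difference was 0.00 in clone 1, 0.32 in clone 2 and -0.52 in clone 3. In clone 2, 31 of its 33 genes were above pLKO (background 49.3%). NDUFV1, which holds the flavin that accepts electrons from NADH, had intensities of 152 in clone 1, 217 in clone 2, 98.1 in clone 3 and 229 in pLKO. All 3 clones were below pLKO, clone 2 by very little, and clone 3 was 2.34-fold lower. NDUFS1, the large iron-sulfur subunit next to it in the electron path, had 415 in clone 1, 390.5 in clone 2, 521 in clone 3 and 363 in pLKO, so all 3 clones were above pLKO and the largest difference was 1.43-fold higher. With quantile normalization, the core subunits NDUFV1 and NDUFS1, neighbours in the enzyme, therefore lay on opposite sides of pLKO. With median centring they shared a direction in each clone. The log2 differences in clones 1, 2 and 3 were then -1.13, 0.08 and -1.83 for NDUFV1 and -0.43, 0.27 and -0.28 for NDUFS1. The signs were the same with the values as deposited.

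NDUFAB1, the mitochondrial acyl carrier protein that is also part of complex I, had the lowest mean difference of complex I, at 725 in clone 1, 2024 in clone 2, 238 in clone 3 and 1682 in pLKO. Clone 2 exceeded pLKO slightly, clone 1 was 2.32-fold lower and clone 3 was 7.08-fold lower, with a log2 difference of -2.82. NDUFB1, an accessory subunit of the membrane arm, had the highest mean difference of complex I, at 1042 in clone 1, 903 in clone 2, 1081 in clone 3 and 652 in pLKO. All 3 clones were above pLKO, by factors of 1.6, 1.38 and 1.66. NDUFB9 and NDUFA12, accessory subunits of the membrane arm and of the peripheral arm, were more even: NDUFB9 had intensities of 1711, 2528, 1358 and 1943 in clones 1, 2, 3 and pLKO, and NDUFA12 had 1534, 2032, 956 and 1529.9. In both, clone 2 was the highest and clone 3 the lowest.

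Other complex I genes showed how unevenly clone 3 departed. NDUFB8 was 2.42-fold higher there and NDUFA11 2.22-fold higher, while NDUFB11 was 4.01-fold lower, NDUFB5 3.98-fold lower and NDUFA10 3.34-fold lower. All are accessory subunits. In clone 1 the extremes were NDUFA3, 1.96-fold higher, and NDUFAB1, and in clone 2 they were NDUFC1, 1.76-fold higher, and NDUFV3, 1.27-fold lower. These examples were picked after their values were seen.

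Complex II, succinate dehydrogenase, links the citrate cycle to the chain and has only nuclear-encoded subunits. All 3 genes read here were below pLKO in clone 1 (background 48.5%) and in clone 3 (background 53.8%). SDHA, the flavoprotein that oxidizes succinate, had intensities of 160.3 in clone 1, 281 in clone 2, 108 in clone 3 and 262 in pLKO. Clone 2 stood just above pLKO, clone 1 was 1.63-fold lower and clone 3 2.42-fold lower. SDHC, a membrane anchor, had 211 in clone 1, 288 in clone 2, 189 in clone 3 and 262 in pLKO, and its low value in clone 3 was 1.38-fold lower. SDHD, the other anchor, had 167 in clone 1, 227 in clone 2, 69.9 in clone 3 and 238 in pLKO. SDHD was below pLKO in all 3 clones, although in clone 2 only by -0.07 on the log2 scale, and it was 3.4-fold lower in clone 3.

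Complex III passes electrons from ubiquinol to cytochrome c. All 7 of its genes were below pLKO in clone 3 (background 53.8%), 6 of them by at least 2-fold (background 22.4%). The median log2 difference was -0.57 in clone 1, 0.22 in clone 2 and -1.75 in clone 3. CYC1, cytochrome c1, had the lowest mean difference of the complex, with intensities of 340.3 in clone 1, 558 in clone 2, 157 in clone 3 and 606 in pLKO. All 3 clones were below pLKO, by factors of 1.78, 1.09 and 3.86 in clones 1, 2 and 3. UQCR10, a small accessory subunit, had 1372 in clone 1, 2278 in clone 2, 470.1 in clone 3 and 1579.8 in pLKO, with clone 2 the highest and clone 3 3.36-fold lower. UQCRB, which lies near the ubiquinone site, had the highest mean difference of complex III, close to 0, at 1163 in clone 1, 1320.2 in clone 2, 913 in clone 3 and 1132 in pLKO. UQCRC1, a core subunit, was 5.64-fold lower in clone 3 and 1.26-fold higher in clone 2.

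**Figure D2:**
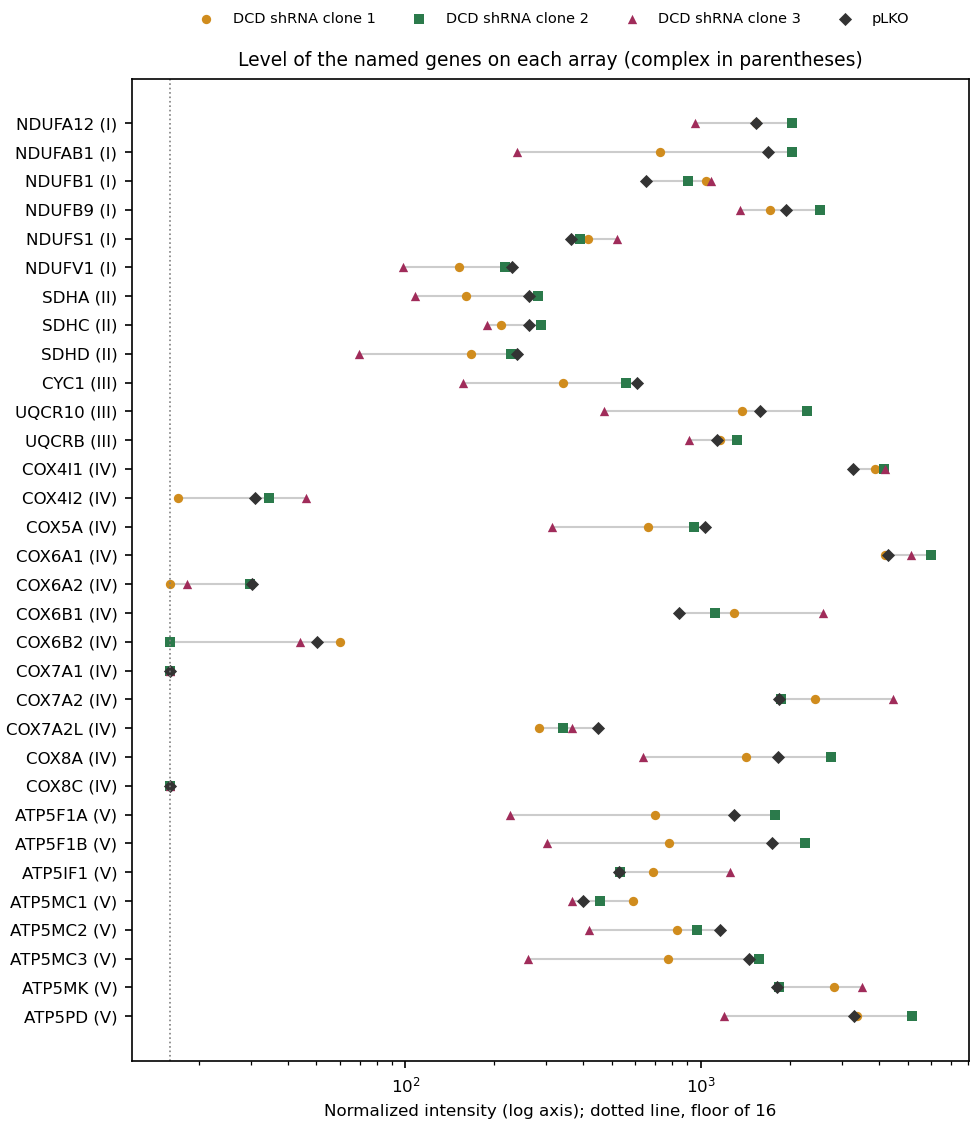
Normalized intensity on a log axis of named genes on the 4 arrays, 1 marker an array and 1 row a gene, with a dotted line at the floor of 16. Clone 3 lies farthest to the left for ATP5F1A, ATP5F1B, CYC1 and NDUFAB1 and farthest to the right for COX6B1 and COX7A2, while clone 2 stays close to pLKO in most rows.

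Complex IV, cytochrome c oxidase, hands electrons to oxygen. With quantile normalization, 7 of its 14 tested genes were above pLKO in clone 3 (background 45.4%) and 7 below (background 53.8%), shares near those of all genes. Its median was -0.17 in clone 1, 0.25 in clone 2 and -0.05 in clone 3, the last turning to -0.70 with median centring. Of the genes above pLKO in clone 3, COX4I2, COX5B, COX6B1 and COX7A2 stayed above it with median centring and COX6B1 alone as deposited. COX6B1, on the outer face of the enzyme, had the highest mean difference of all 74 genes, with intensities of 1291 in clone 1, 1114 in clone 2, 2593 in clone 3 and 840.2 in pLKO. All 3 clones were above pLKO, by factors of 1.54, 1.33 and 3.09 in clones 1, 2 and 3. COX4I1, the subunit through which ATP regulates the enzyme, was higher by a narrow margin, at 3891 in clone 1, 4149 in clone 2, 4187 in clone 3 and 3264 in pLKO. COX7A2 had 2437 in clone 1, 1867 in clone 2, 4456 in clone 3 and 1836 in pLKO, so clone 2 differed from pLKO by 0.02 on the log2 scale and clone 3 was 2.43-fold higher.

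Other subunits of complex IV went the opposite way in clone 3. COX5A had intensities of 663 in clone 1, 949 in clone 2, 314 in clone 3 and 1029 in pLKO. It was below pLKO in all 3 clones and 3.28-fold lower in clone 3, while COX5B, whose promoter is printed, was 1.94-fold higher there. COX8A, whose promoter is also printed, had 1421 in clone 1, 2742 in clone 2, 636 in clone 3 and 1825 in pLKO, with clone 2 the highest. COX6A1 had 4187 in clone 1, 5984 in clone 2, 5128 in clone 3 and 4304 in pLKO, so clone 1 was near pLKO and clones 2 and 3 above it. COX7A2L had 282 in clone 1, 343 in clone 2, 365 in clone 3 and 450.1 in pLKO, below pLKO in all 3 clones by factors of 1.59, 1.31 and 1.23.

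The isoforms of complex IV known from other tissues were at or near the floor. COX7A1 of heart and muscle and COX8C of testis were at 16 on all 4 arrays, COX7B2 of testis read 16 to 18.4, and these 3 did not pass the filter, nor did ATP5MF, a complex V subunit at 16 on every array through its only probe set named for it alone. COX6A2, the muscle isoform, passed with intensities of 16 in clone 1, 29.8 in clone 2, 18.3 in clone 3 and 30.3 in pLKO, and COX4I2, the isoform of lung that responds to oxygen, with 17 in clone 1, 34.7 in clone 2, 46 in clone 3 and 31.1 in pLKO. COX6B2, the testis isoform, had 60 in clone 1, 16 in clone 2, 44.2 in clone 3 and 50.4 in pLKO, and its value in clone 2 is the floor. Differences of these 3 genes were between intensities near background, and those against a value of 16 depend on the floor.

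Complex V had medians of 0.03 in clone 1, 0.33 in clone 2 and -0.58 in clone 3. Of its 17 genes, 16 were above pLKO in clone 2 (background 49.3%) and 14 below in clone 3 (background 53.8%). ATP5F1A and ATP5F1B form the catalytic head. ATP5F1A had intensities of 701 in clone 1, 1780.0 in clone 2, 227 in clone 3 and 1294 in pLKO, and ATP5F1B had 779 in clone 1, 2241 in clone 2, 301 in clone 3 and 1736 in pLKO. In both, clone 2 was above pLKO, by factors of 1.38 and 1.29, and clone 3 was far below it, by factors of 5.71 and 5.76. ATP5F1C, the rotating stalk of the same head, had 1852 in clone 1, 1743 in clone 2, 1372 in clone 3 and 1385 in pLKO, and clone 3 differed from pLKO by -0.01 on the log2 scale.

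ATP5MC1, ATP5MC2 and ATP5MC3 encode the same mature c subunit of the membrane ring with different import sequences. ATP5MC1 had intensities of 590.4 in clone 1, 455 in clone 2, 366 in clone 3 and 399 in pLKO, highest in clone 1. ATP5MC2 had 832 in clone 1, 971 in clone 2, 417 in clone 3 and 1160.0 in pLKO, highest in pLKO. ATP5MC3 had 774 in clone 1, 1568 in clone 2, 259.6 in clone 3 and 1450.5 in pLKO, with clone 2 and pLKO close together. The genes parted in clone 1, where ATP5MC1 was 1.48-fold higher and ATP5MC3 1.87-fold lower, and in clone 3, where ATP5MC1 was 1.09-fold lower and ATP5MC3 5.59-fold lower. ATP5PD, a subunit of the outer stalk, had 3361 in clone 1, 5163 in clone 2, 1200.2 in clone 3 and 3293 in pLKO, highest in clone 2 and lowest in clone 3.

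The gene of complex V with the highest mean difference was ATP5IF1, which encodes the inhibitor that stops ATP synthase from running in reverse, at 689 in clone 1, 534 in clone 2, 1255 in clone 3 and 529 in pLKO. Clone 2 differed from pLKO by 0.01 on the log2 scale and clone 3 was 2.37-fold higher. ATP5MK, a small membrane subunit, had 2815 in clone 1, 1839 in clone 2, 3496 in clone 3 and 1809 in pLKO, again near pLKO in clone 2 and above it in clones 1 and 3. ATP5ME, whose promoter holds the NRF1 match printed, was 1.4-fold higher in clone 1, 1.44-fold higher in clone 2 and 1.05-fold lower in clone 3.

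Where several probe sets read 1 gene, they often disagreed in clone 3. Of the 74 genes, 29 had at least 2 tested probe sets, 78 probe sets in all. These lay on both sides of pLKO for 19 of the 29 genes in clone 3, 14 in clone 2 and 11 in clone 1. The same count was not made over all tested genes, so it cannot be called particular to the subunit genes. Some of these probe sets were near the floor in pLKO, such as those of ATP5F1C at 16, NDUFB2 at 19.7 and NDUFB4 at 21.9. The median range of the log2 difference within a gene was 1.48 in clone 3, 0.34 in clone 2 and 0.69 in clone 1, so in each clone the typical spread between probe sets of a gene was larger than the median shift of the group.

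UQCRC2, a core subunit of complex III, was the extreme. Its 3 probe sets differed from pLKO in clone 3 by -4.19, -1.73 and 3.86 on the log2 scale, the last from a normalized intensity of 19.7 in pLKO to 285 in clone 3. ATP5MC3 was read as -5.04, -2.48 and -0.49 in clone 3, a common direction with very different sizes. SDHC ranged from -2.16 to 1.55 over 6 probe sets. It was lower in clone 3 on every tested probe set with 92.2 to 359 in pLKO, least so on the one used, at -0.47. It was higher only on the weak ones, with 35.1 and 39.4 in pLKO. NDUFS1 was above pLKO in clone 3 on all 4 of its tested probe sets, by 0.52 to 2.48, and COX5B on all 4 of its own, by 0.24 to 1.52. Further named genes had probe sets on both sides of pLKO in clone 3, with the probe set used given first, among them COX5A (-1.71 and 0.85), ATP5PD (-1.46 and 1.24), NDUFA11 (1.15 and -2.55), NDUFB8 (1.27, 1.17 and -0.45) and ATP5IF1 (1.25, 0.96 and -0.49). The same held for ATP5F1C, which reached 2.18 on a probe set not used, and for ATP5ME, UQCRB, NDUFA6 and NDUFV3. The rest of the 19 were ATP5F1D, ATP5MG, ATP5MJ, ATP5PO, NDUFB2, NDUFB4 and NDUFB7. Over all 123 tested probe sets of these genes the medians were -0.11 in clone 1, 0.24 in clone 2 and -0.30 in clone 3.

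**Figure D3:**
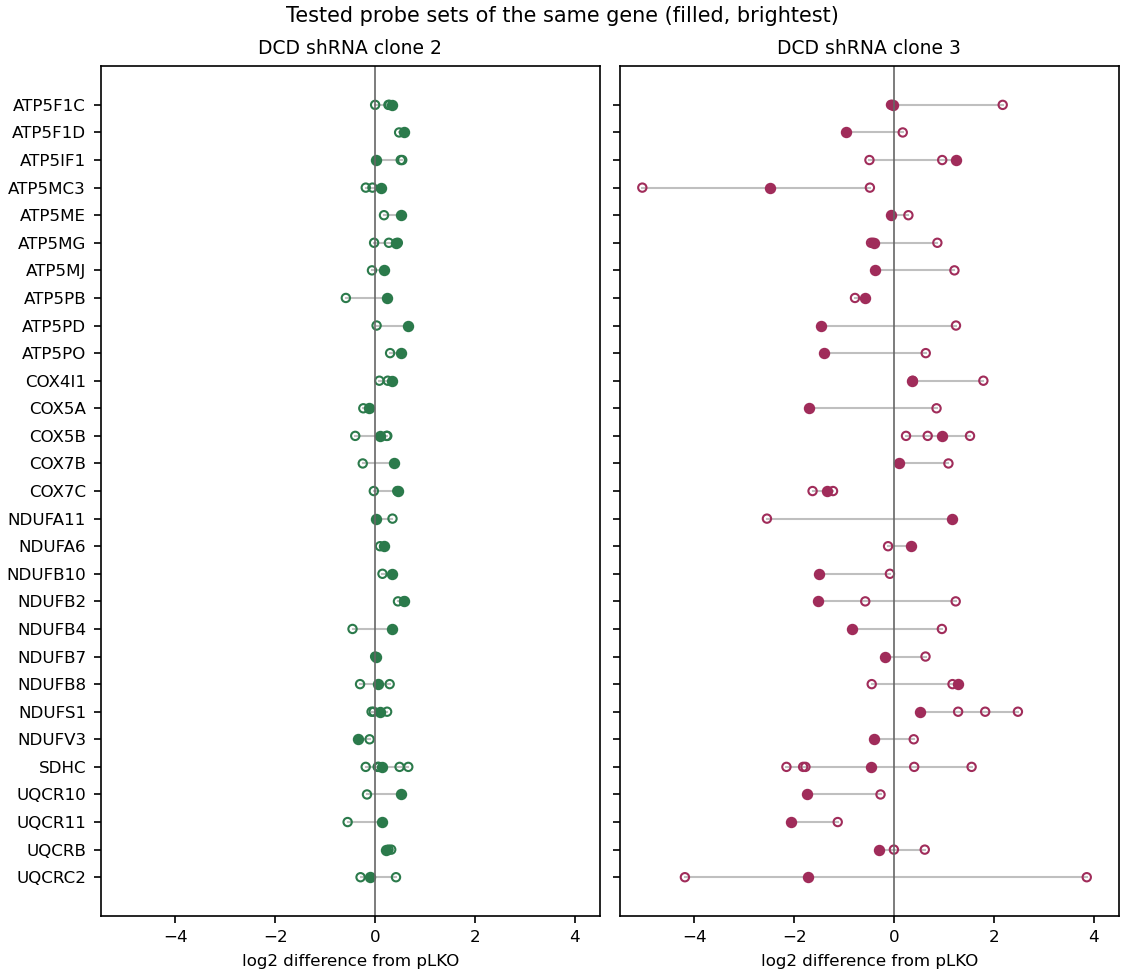
Log2 difference from pLKO of each tested probe set for the 29 genes with at least 2, with a panel each for clone 2 and clone 3, 1 row a gene, the probe set used for the gene filled, and a line joining the probe sets of a gene. The lines are short in clone 2 and long in clone 3, where those of 19 genes cross 0, and that of UQCRC2 runs from -4.19 to 3.86.

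Lists of related mitochondrial and housekeeping genes gave a comparison. Assembly factors, which help to put the complexes together, had medians of -0.36, -0.01 and -0.69 in clones 1, 2 and 3 over 47 tested genes, with clone 2 at the level of all tested genes. The 3 with the largest mean difference were SCO1 and COA1, which serve complex IV, and ECSIT, which serves complex I. COA1 had intensities of 89 in clone 1, 128 in clone 2, 16 in clone 3 and 161 in pLKO, so clone 3 was at the floor. SCO1 had 16 in clone 1, 57 in clone 2, 16 in clone 3 and 71.3 in pLKO. ECSIT had 16 in clone 1, 59.4 in clone 2, 27.6 in clone 3 and 83.1 in pLKO, and both were below pLKO in all 3 clones. In this list 23 genes were above pLKO (background 49.3%) and 24 below in clone 2, and 18 above and 29 below (background 53.8%) in clone 3.

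Regulators of mitochondrial biogenesis, the transcription and replication factors, had medians of -0.28, -0.12 and 0.40 over 16 genes. In clone 3, 11 of them were above pLKO (background 45.4%). The median in clone 3 turned to -0.19 with median centring and -0.81 as deposited, and minus that of all tested genes it was 0.50, 0.34 and 0.26 under the 3 scalings. TFAM, which packages and transcribes mitochondrial DNA, had 562 in clone 1, 449 in clone 2, 766 in clone 3 and 348 in pLKO, above pLKO in all 3 clones, but as deposited clone 3 was below pLKO, at 374 against 457. TFB2M, a mitochondrial transcription factor, had 63.4 in clone 1, 146 in clone 2, 30.3 in clone 3 and 154 in pLKO, below pLKO in all 3. PPARGC1A, a coactivator of biogenesis, was near background at 31.1 in clone 1, 20.8 in clone 2, 56 in clone 3 and 18.6 in pLKO.

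Citrate cycle enzymes had medians of -0.47, 0.22 and -0.84 over 11 genes, the same signs as the respiratory subunits. DLD, the shared dehydrogenase component, had 92.8 in clone 1, 209 in clone 2, 25.2 in clone 3 and 242 in pLKO. MDH2, malate dehydrogenase, had 655 in clone 1, 1450.5 in clone 2, 358 in clone 3 and 1319 in pLKO. SUCLG2, a subunit of succinyl-CoA ligase, had 290.2 in clone 1, 264 in clone 2, 85.1 in clone 3 and 339 in pLKO. All 3 genes were lowest in clone 3. The mitochondrial ribosome had medians of -0.21, 0.13 and -0.43 over 75 genes, with MRPS23 at 151, 311, 44 and 379, MRPS12 at 45.5, 159, 16 and 134 and MRPS16 at 324, 158, 476 and 113 in clones 1, 2, 3 and pLKO. The first was below pLKO in all 3 clones and the last above it.

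The cytosolic ribosome did not follow the pattern, with medians of -0.33, -0.30 and -0.27 over 58 genes. In clone 2, 50 of them were below pLKO (background 49.2%). All 3 medians stayed below 0 under the other scalings. RPS12, RPL3 and RPL10A had its largest mean differences, and RPL3 had intensities of 1946 in clone 1, 2568 in clone 2, 954 in clone 3 and 3675 in pLKO. RPS12 was 1.18-fold lower in clone 2 and 4.87-fold lower in clone 3, and RPL10A 1.25-fold lower and 3.64-fold lower. The proteasome had medians of 0.09, 0.55 and -0.67 over 33 genes, and that of clone 1 turned to -0.59 with median centring. PSMD9 was 12.7-fold lower and PSMD10 3.86-fold lower in clone 3, where PSMC6 was 4.06-fold higher.

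The order clone 2, pLKO, clone 1, clone 3 was held by 39.4% of the proteasome genes, 36.5% of the respiratory subunits, 29.3% of the mitochondrial ribosome, 27.3% of the citrate cycle, 19.1% of the assembly factors, 6.25% of the regulators and 1.72% of the cytosolic ribosome. These shares describe lists of unequal size on the same 4 arrays, and no test of a difference between lists was run.

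**Figure D4:**
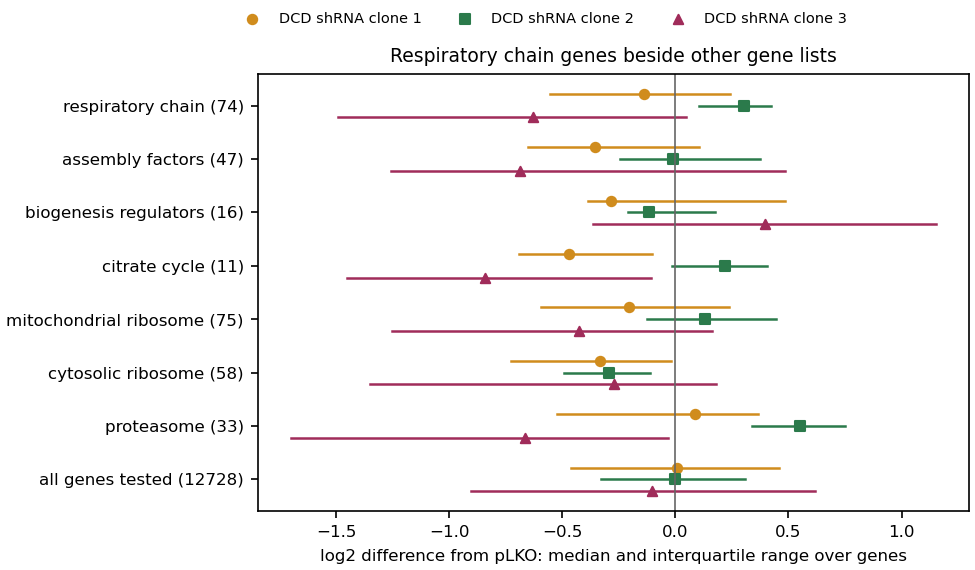
Median log2 difference from pLKO in each clone for the respiratory chain genes, the other gene lists and all tested genes, with the number of tested genes in parentheses and lines for the interquartile range over genes. In clone 2 the proteasome lies highest at 0.55 and the cytosolic ribosome lowest at -0.30, and in clone 3 the regulators are the only list above 0, at 0.40 with quantile normalization and -0.19 with median centring.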

How the data were processed

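RNA of 4 cultures was hybridized to Affymetrix U133 Plus 2.0 arrays by a core facility, and the study names dChip for the analysis. The values deposited are linear intensities, 1 per probe set and array, with the program behind them not given in the sources used here. The deposited intensities differed between arrays in median (13.4 to 24.7), so they were quantile normalized with limma (version 3.58.1, R 4.3.3) after leaving out 62 control probe sets and setting intensities under 0.1 to 0.1. Values under 16 were set to 16 and log2 was taken. Tests covered the 27307 of 54613 probe sets whose mean log2 intensity reached the median probe set. Platform annotation named 41091 probe sets for a single gene, 1801 for several and 11721 for none, and 41037 symbols were updated by gene identifier from a RefSeq table of GRCh38.p14, used for names and promoter windows. Where a gene had several probe sets, that of highest mean log2 intensity was used. Left out as not coding for protein were 5 symbols.

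limma compared the 3 clones with pLKO, with Benjamini-Hochberg adjustment over 27307 probe sets. The code was also run on simulated data whose spread was set and not taken from these arrays. That run therefore does not bear on the calls made here. In the fit to the arrays, the spread is that between 3 cultures with different hairpins. Single comparisons have no test. The number of arrays limits the precision. The members and all lists were chosen with earlier results of these data known. Genes were named by rule: those with the highest mean intensity, highest or lowest mean difference of each complex, core subunits, all SDH genes, isoform families, and up to 3 genes of each other list with the largest absolute mean difference. Other genes were named after their values were seen. Alternatives were median centring, the values as deposited, floors of 1 and 64, no filter or an upper quartile filter, the mean of all probe sets, no _x_at probe sets, platform symbols, each clone left out, fold rules of 1.2, 2 and the methods' 3, and other limma settings. Motifs were searched as exact letters on both strands. Python 3.11.15, pandas 2.3.3 and matplotlib 3.10.9 were used.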

Additional observations from a re-analysis of the deposited data

How the results depend on the processing

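The median of the mean difference from pLKO over the 74 genes was -0.23 on the log2 scale, and -0.77 with the values as deposited; leaving out 1 clone gave -0.49 to 0.11, and it was above 0 without clone 3. With median centring and as deposited, the median of clone 1 moved from -0.14 to -0.79 and -0.84, and that of clone 3 from -0.63 to -1.42 and -2.04. By complex, the same settings moved complex I from -0.11 to -0.55 and -0.68, complex IV from -0.18 to -0.48 and -0.57, and complex V from -0.26 to -0.76 and -0.89. Complex IV was 0.10 with the upper quartile filter and 0.099 when the arrays were normalized without clone 3, and leaving out 1 clone gave -0.10 to 0.11. Leaving out 1 clone gave -0.35 to 0.17 for complex I, -0.99 to -0.29 for complex II, -1.26 to -0.12 for complex III and -0.49 to 0.20 for complex V, and those of complexes I and V were above 0 without clone 3. Genes past 1.5-fold in all comparisons numbered 0 in either direction; leaving out 1 clone gave 0 to 3 higher and 0 to 13 lower, the 3 and 13 without clone 2, and the 1.2-fold rule gave 3 higher and 1 lower. Genes above pLKO in all comparisons went from 15 to 0 with median centring and 0 as deposited, 15 to 31 with 1 clone left out, and 31 when normalized without clone 3. Those below went from 8 to 2 as deposited and 8 to 37 with 1 clone left out, 37 being without clone 2. limma called 0 genes under every setting it was run with, and at an unadjusted p of 0.05 it counted 3 with a floor of 64 or no filter and 0 otherwise. Of 178 alternative values for these results 154 moved by less than the spread between clones, as did 274 of 299 for the named genes. For 32 of the latter the sign differed, 13 of them by scaling. The causes were not tested. The tallies do not measure robustness, since a floor of 1 and platform symbols left nearly all values as they were. A move within the spread could also change sign, as the group median did from -0.23 to 0.11 without clone 3. No paired analysis was possible because pLKO has 1 array and its label carries no number that matches it to a clone. With 39.3 to 55.1% of probe sets under 16, differences of weak genes such as COX4I2, COX6A2 and COX6B2 lie at the limit of the signal.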
